A study of Homo sapiens with 12 samples.

Results

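Messenger RNA of 10 heat shock protein genes was followed in the cell lines PA-1 and SK-OV-3. The genes were taken by symbol from the deposited table of gene counts. They are HSPA1A, HSPA1B, HSPA8, DNAJB1, HSPH1, HSP90AA1, HSPB1, BAG3, HSPD1 and HSPE1, which are 10 of the 26475 symbols in the table, and each was found once. PA-1 is an established human line from an ovarian teratocarcinoma and SK-OV-3 is an established human line from an ovarian adenocarcinoma. Each line was given DMSO, the vehicle, or 5 µM BAY-850, an inhibitor of the bromodomain of ATAD2, for 48 h, and the 4 groups were represented by 3 replicate libraries apiece, 12 in all. PA-1 cells were grown in DMEM and SK-OV-3 cells in RPMI, so the line and its medium cannot be told apart in these samples. Each line is 1 model of its tumour type, and BAY-850 was used at 1 dose and 1 time.

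Heat shock proteins are molecular chaperones that hold unfolded proteins, help them to fold and pass those that cannot be rescued to degradation. In the cytosol, proteins of the HSP70 family (HSPA8 in unstressed cells, HSPA1A and HSPA1B under stress) take up a client with the help of an HSP40 partner such as DNAJB1, release it with the help of an exchange factor such as HSPH1 or BAG3, and may pass it on to HSP90. The small heat shock protein HSPB1 keeps denatured proteins from aggregating without using ATP. HSPD1 and HSPE1 are the large ring and the lid of the chaperonin of the mitochondrial matrix, so that by textbook knowledge these 2 genes of the group do not encode cytosolic proteins. When proteins unfold in the cytosol, the transcription factor HSF1 forms trimers and binds heat shock elements, which are runs of the short unit GAA and its reverse complement TTC in alternating orientation.

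Sequences around the start sites are shown because the promoters of these genes are the textbook place of the heat shock element and because they show how alike HSPA1A and HSPA1B are. RefSeq sequences on GRCh38.p14 from 250 bases before to 50 bases after a start site were read for every gene with an entry, and the 10 genes matched 14 such windows. The patterns searched were GAANNTTC and TTCNNGAA, which are 2 adjoining units and read the same on both strands, so that a match on one strand is a match on the other. A match of either pattern was found in 8 of the 14 windows, against 13.5% of all 35116 windows of the same length. Matches may overlap each other, and 3 adjoining units were found in 3 of the 14 windows and in 0.49% of all windows. By gene, 7 of the 10 had at least 1 match and 3 (HSPH1, BAG3 and HSPE1) had none, which says only that these letters are not in their windows. In the sequences below, capitals mark matched bases and positions are counted from the RefSeq start site.

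The 150 bases before the start sites of HSPA1A (chr6:31815393-31815542, plus strand) and HSPA1B (chr6:31827588-31827737, plus strand) each held 1 match, at position -106 and at position -105, and the 300-base windows of the 2 genes were 92.6% identical over 299 aligned bases.
HSPA1A: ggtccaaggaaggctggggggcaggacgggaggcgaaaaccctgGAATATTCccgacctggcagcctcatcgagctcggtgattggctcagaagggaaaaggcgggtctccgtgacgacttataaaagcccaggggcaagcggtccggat
HSPA1B: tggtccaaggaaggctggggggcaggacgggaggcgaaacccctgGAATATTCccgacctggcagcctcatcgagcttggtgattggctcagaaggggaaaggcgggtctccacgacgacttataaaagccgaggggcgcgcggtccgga
The 3 genes whose windows held 3 adjoining units were HSPA8, HSP90AA1 and HSPD1. For HSPA8 the stretches lie at chr11:123062171-123062199 and chr11:123062346-123062374, for HSP90AA1 at chr14:102087097-102087140 and for HSPD1 at chr2:197500060-197500090, all on the minus strand.
HSPA8 near: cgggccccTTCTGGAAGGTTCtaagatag
HSPA8 far: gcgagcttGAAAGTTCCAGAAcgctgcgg
HSP90AA1: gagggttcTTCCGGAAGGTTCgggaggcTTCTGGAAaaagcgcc
HSPD1: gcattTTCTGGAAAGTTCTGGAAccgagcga
The remaining matches were of 2 units, and the stretches that hold them are at chr19:14518429-14518482 on the minus strand for DNAJB1 and at chr7:76302483-76302506 on the plus strand for HSPB1. A further DNAJB1 window held 1 match at its own start site.
DNAJB1: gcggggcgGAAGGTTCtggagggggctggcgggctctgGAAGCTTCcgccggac
HSPB1: taacgagaGAAGGTTCcagatgag

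The libraries held between 34544505 and 51840233 counts, and genes for ribosomal RNA took 7.94% to 16.9% of them. The extraction protocol speaks of oligo-dT beads and strand marking, whereas the series design speaks of removing ribosomal RNA. Of 6 genes known from pluripotent and germ cell tumour cells, such as LIN28A and SOX2, all 6 were lower in SK-OV-3 than in PA-1, and of 8 genes known from epithelial ovarian cells, such as PAX8 and ERBB2, 7 were higher and KRT18 was lower. Over all genes tested 40.1% were called higher and 40.2% lower, so the number of markers called says little by itself. LIN28A went with the labels (755.8 CPM in PA-1 and 0.102 in SK-OV-3 with DMSO), as did SOX2 (224.3 and 0). PAX8 (0.369 and 223) and ERBB2 (61.3 and 2416.3) did so as well. KRT8 was close in the lines (531.8 and 598.6), and DPPA4 (1.80 and 0) and MUC16 (0.0759 and 0.737) were low in both. The SK-OV-3 library with BAY-850 numbered 3 stood apart by having counts in 15626 genes, against 17418 to 18403 in the other 11. Differences between replicates were larger than counting noise (chi-square divided by its degrees of freedom, 4.96 to 68.4). These values include the genes for ribosomal RNA, whose share varied between libraries, so they cannot show that the replicates were independent. Each library was counted as 1 sample, and the design text calls the replicates biological. In bulk samples, fewer cells of a kind and less RNA per cell cannot be told apart.

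To compare the abundance of the genes with each other, normalised read counts (CPM, scaled by TMM over the 12 libraries) were divided by the length of 1 transcript per gene. In PA-1 cells with DMSO, HSP90AA1, the stress-inducible cytosolic HSP90, had the highest level with 900 ± 52.7 CPM per kilobase (SD, n = 3), and BAG3 had the lowest with 24 ± 0.832. Between these 2 the order of levels per kilobase was HSPA1A (609), HSPA8 (538), HSPD1 (403), HSPA1B (326), DNAJB1 (210), HSPE1 (203), HSPB1 (146) and HSPH1 (106). Of these neighbours in PA-1 cells, the libraries of DNAJB1 and HSPE1 overlapped and those of all other neighbours did not. In SK-OV-3 cells with DMSO, HSP90AA1 was again the highest with 1236 ± 36.5 CPM per kilobase, followed by HSPA8 (781), HSPA1A (492), HSPD1 (406), HSPE1 (339), HSPB1 (295), HSPA1B (257), DNAJB1 (211), HSPH1 (110) and BAG3 (49.99). Here the libraries of HSPD1 and HSPE1 overlapped, as did those of HSPE1 and HSPB1. In PA-1 cells HSPA1A stood above HSPA8, the constitutive HSP70, and in SK-OV-3 cells it stood below it. HSPA1A and HSPA1B are nearly identical, so the place of either alone depends on how reads were divided between them. HSPA1A plus HSPA1B had 2332.8 CPM in PA-1 and 1870.7 in SK-OV-3 with DMSO, against 1326.1 and 1922.4 for HSPA8, not divided by length.

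**Figure D1:**
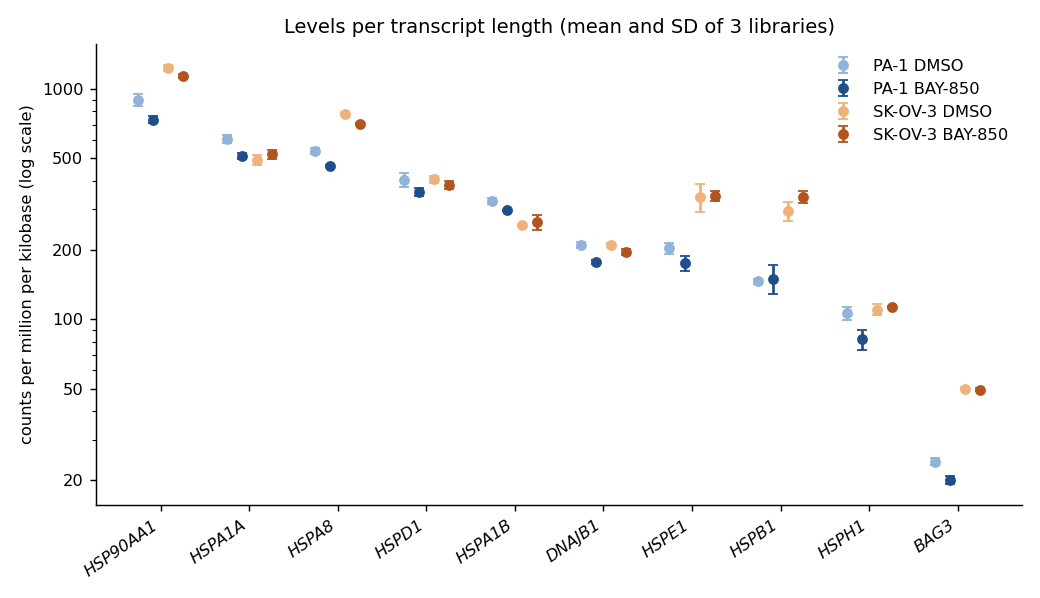
Level of each heat shock protein gene per kilobase of transcript (CPM per kilobase, log axis) in the 4 groups, with genes ordered by their level in PA-1 cells with DMSO; points are means and bars the SD of 3 libraries. HSP90AA1 is the highest of the 10 genes in every group and BAG3 the lowest, and HSPB1, BAG3 and HSPE1 show the widest gap between the lines.

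Without BAY-850, 5 of the 10 genes were higher in SK-OV-3 than in PA-1 cells and 2 were lower by edgeR's quasi-likelihood test at an adjusted p under 0.05 (Benjamini-Hochberg over 16070 genes). With these lines 40.1% of all genes tested were called higher and 40.2% lower, so that a call here is common. The call on all 7 genes held under each of 17 or 18 alternative settings, including each library left out in turn.

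BAG3, a co-chaperone that links HSP70 to small heat shock proteins and to autophagy, had 62.5, 59.4 and 63.5 CPM in the 3 PA-1 libraries with DMSO and 128.7, 126.3 and 130.6 CPM in the 3 SK-OV-3 libraries. It was 2.08-fold higher in SK-OV-3 (log2 difference 1.05 ± 0.0554 SE, edgeR adjusted p = 1.75e-09). HSPB1 had 136.8, 129.4 and 131.6 CPM in PA-1 and 297.6, 250.4 and 257.2 CPM in SK-OV-3, with no overlap. It was 2.02-fold higher in SK-OV-3 (log2 difference 1.01 ± 0.0685, edgeR adjusted p = 2.08e-08).

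HSPE1 was higher by 0.74 ± 0.0865 on the log2 scale, HSPA8 by 0.53 ± 0.0463 and HSP90AA1 by 0.45 ± 0.0524. HSPE1's ring partner HSPD1 had nearly equal means in the lines, 989.7 ± 66.5 and 996.3 ± 36.5 CPM, and a log2 difference of 0.0064 with a 95% interval from -0.12 to 0.13. The ratio of the counts of HSPD1 to those of HSPE1 was accordingly 5.13 ± 0.126 in PA-1 and 3.15 ± 0.52 in SK-OV-3 cells, with no overlap (exact permutation test, two-sided p = 0.1, the smallest that 3 against 3 libraries allow). DNAJB1 and HSPH1 were not called either, with log2 differences of 0.0019 (95% interval -0.10 to 0.11) and 0.050 (-0.080 to 0.18).

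The stress-inducible pair HSPA1A and HSPA1B ran the other way. HSPA1A had 1576.8, 1462.8 and 1496.2 CPM in PA-1 and 1293.5, 1186.0 and 1185.8 CPM in SK-OV-3 cells with DMSO, a log2 difference of -0.31 ± 0.0536 (edgeR adjusted p = 0.000152). HSPA1B was lower in SK-OV-3 by a similar size (log2 difference -0.34 ± 0.0471, edgeR adjusted p = 2.07e-05). Neither gene's libraries overlapped between the lines.

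In PA-1 cells BAY-850 lowered 6 of the 10 genes (HSPH1, HSP90AA1, BAG3, DNAJB1, HSPA1A and HSPA8) and raised 0 by edgeR's test at an adjusted p under 0.05. Of all 15212 genes tested in PA-1, 2.48% were called lower and 4.65% higher (378 and 707 genes, which became 231 and 235 when libraries were scaled by their size alone). The called genes fell by 13.7% (HSPA8) to 22.7% (HSPH1). The median log2 fold change of the 10 genes was -0.23, against -0.0019 over all genes tested, and 9 of the 10 values lay below 0. With BAY-850 the libraries of 8 of the 10 genes all lay below those with DMSO, which 13.3% of all genes did, and 0 of the 10 all lay above, which 14.1% did. With an unadjusted p under 0.05, 9 of the 10 were lower and 0 higher, against 11.1% and 12.7% of all genes.

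HSPH1, the HSP110 exchange factor of HSP70, had the largest decrease of the group. It had 557.0, 581.7 and 514.9 CPM in the 3 PA-1 libraries with DMSO and 470.8, 418.4 and 386.8 CPM with BAY-850. Every BAY-850 library lay below every DMSO library, and HSPH1 fell by 0.37 ± 0.0695 on the log2 scale (fold 0.773, edgeR adjusted p = 0.00534). HSP90AA1 had 3138.0, 3149.0 and 2835.1 CPM with DMSO and 2579.4, 2446.0 and 2431.2 CPM with BAY-850, again with no overlap. It fell by 0.29 ± 0.0512 (fold 0.818, edgeR adjusted p = 0.00369).

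Among the HSP70 genes and their partners, HSPA8 had 1352.1, 1346.6 and 1279.7 CPM with DMSO and 1139.8, 1148.5 and 1141.2 CPM with BAY-850. The 3 treated libraries lay close together and below all controls, and HSPA8 fell by 0.21 ± 0.047 (fold 0.863, edgeR adjusted p = 0.0146). HSPA1A had 1306.8, 1233.3 and 1287.0 CPM with BAY-850, all below the 3 control libraries given above, and fell by 0.24 ± 0.0496 (fold 0.845, edgeR adjusted p = 0.00939). DNAJB1, the HSP40 that stimulates the ATPase of HSP70, had 490.9, 474.2 and 462.0 CPM with DMSO and 411.3, 395.8 and 395.2 CPM with BAY-850. It did not overlap between the groups and fell by 0.25 ± 0.051 (fold 0.844, edgeR adjusted p = 0.0102). BAG3 had 52.9, 52.1 and 49.2 CPM with BAY-850, below all of its controls, and fell by 0.26 ± 0.0612 (fold 0.833, edgeR adjusted p = 0.0186).

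HSPA1B, the near-copy of HSPA1A, had 815.7, 801.2 and 845.6 CPM with DMSO and 754.9, 750.0 and 748.7 CPM with BAY-850. The groups did not overlap, but the log2 fold change of -0.13 ± 0.0482 did not pass the test (edgeR adjusted p = 0.125, 95% interval -0.23 to -0.023). The mitochondrial pair gave log2 fold changes of -0.17 ± 0.0571 for HSPD1 (edgeR adjusted p = 0.0886) and -0.21 ± 0.0661 for HSPE1 (edgeR adjusted p = 0.0698). HSPD1 had 1042.7, 1011.3 and 915.0 CPM with DMSO and 921.0, 865.8 and 852.6 CPM with BAY-850, so that 1 treated library lay above 1 control. HSPB1 was the one gene with a log2 fold change above 0 (0.045 ± 0.0834, edgeR adjusted p = 0.799). Its 3 libraries with BAY-850 spread from 119.9 to 158.6 CPM and enclosed those with DMSO.

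The calls in PA-1 cells depended on which libraries were included. The count of 6 became 2 without DMSO replicate 1 and 2 without BAY-850 replicate 2 (HSPH1 and HSP90AA1 in both), and 2 without DMSO replicate 2 (HSPA1A and BAG3). Without DMSO replicate 2 the edgeR adjusted p was 0.0533 for HSPH1, 0.0532 for HSP90AA1, 0.105 for HSPA8 and 0.0633 for DNAJB1. Without DMSO replicate 1 it was 0.0509 for HSPA1A, 0.0627 for HSPA8, 0.0545 for DNAJB1 and 0.0703 for BAG3, and without BAY-850 replicate 2 it was 0.0772 for HSPA1A, 0.0794 for HSPA8, 0.0739 for DNAJB1 and 0.0793 for BAG3. BAG3 was also lost without DMSO replicate 3 (0.0505), where HSPD1 was gained (0.0366), and HSPE1 was gained without BAY-850 replicate 1 (0.0461). The log2 fold changes themselves moved less, for example between -0.45 and -0.31 for HSPH1 and between -0.34 and -0.26 for HSP90AA1 over the 6 fits with 1 library left out. The DESeq2 Wald test called 9 of the 10 genes lower, and scaling by library size alone lost BAG3 (edgeR adjusted p = 0.0602).

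**Figure D2:**
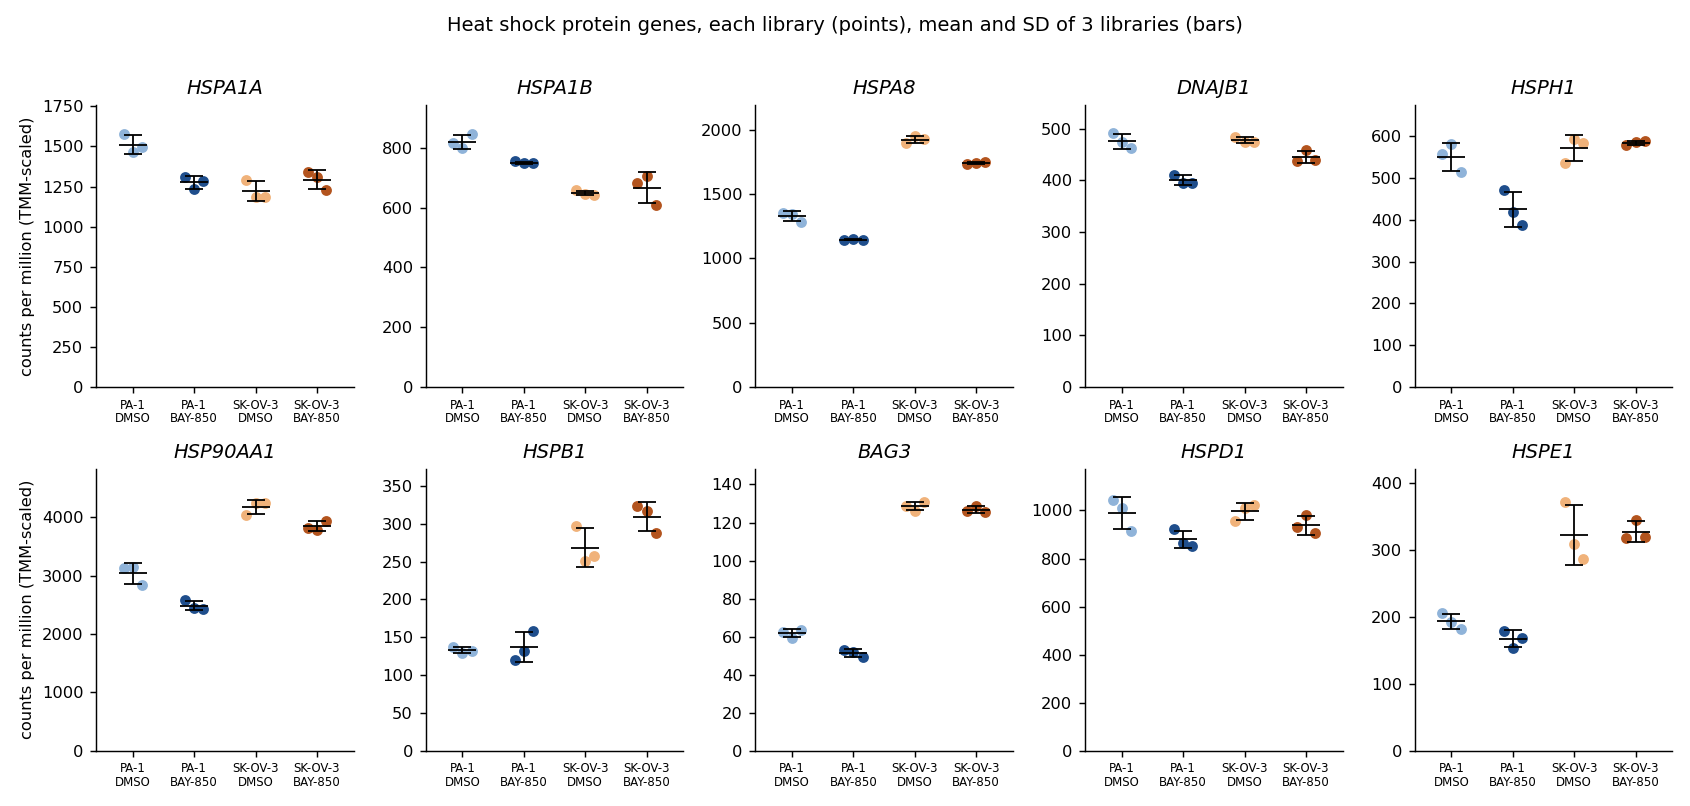
CPM (TMM-scaled, axes from 0) of each heat shock protein gene in every library; points are libraries, and bars the mean and SD of 3 libraries for PA-1 with DMSO, PA-1 with BAY-850, SK-OV-3 with DMSO and SK-OV-3 with BAY-850. In PA-1 the treated libraries of 8 genes, among them HSPH1, HSPA8 and BAG3, lie below all controls, and the libraries of HSPB1 and HSPD1 overlap; in SK-OV-3 most groups overlap.

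In SK-OV-3 cells, BAY-850 lowered HSPA8 and raised HSPB1, and the other 8 genes did not pass the test. Of all 15348 genes tested in SK-OV-3, 9.56% were called lower and 10.8% higher, so the share of 1 in 10 for each direction was near that of all genes. The median log2 fold change of the 10 genes was 0.013, against -0.0091 over all genes, with 5 values on each side of 0. The libraries of 3 genes (HSPA8, DNAJB1 and HSP90AA1) with BAY-850 all lay below those with DMSO, which 20.5% of all genes did, and those of 0 genes all lay above, which 18.1% did. At an unadjusted p under 0.05, 2 genes (HSPA8 and HSP90AA1) were lower and 1 (HSPB1) was higher, against 16.2% and 17.1% of all genes.

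HSPA8 had 1892.9, 1946.7 and 1927.7 CPM with DMSO and 1730.2, 1740.1 and 1750.1 CPM with BAY-850 in SK-OV-3 cells. The groups did not overlap, and HSPA8 fell by 0.13 ± 0.0372 on the log2 scale (fold 0.914, edgeR adjusted p = 0.0293). HSPB1 had 297.6, 250.4 and 257.2 CPM with DMSO and 323.0, 317.1 and 287.3 CPM with BAY-850. Its DMSO replicate 1 lay above its BAY-850 replicate 3, and HSPB1 rose by 0.22 ± 0.0687 (fold 1.16, edgeR adjusted p = 0.0467).

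Both calls in SK-OV-3 cells depended on single libraries. Neither was kept without DMSO replicate 2 (edgeR adjusted p = 0.124 for HSPA8 and 0.207 for HSPB1), without DMSO replicate 3 (0.108 and 0.161), without BAY-850 replicate 1 (0.111 and 0.144) or without BAY-850 replicate 2 (0.126 and 0.129). Without DMSO replicate 1, 4 genes were called, HSPA1A (adjusted p = 0.0151, log2 fold change 0.14) and HSP90AA1 (0.0342) in addition to HSPA8 and HSPB1, and without BAY-850 replicate 3, the library with fewer genes counted, 3 were called (HSP90AA1 in addition, 0.0225). HSPA8 was lost under 6 and HSPB1 under 2 of the 12 other settings.

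HSP90AA1 had 4032.5, 4251.4 and 4240.4 CPM with DMSO and 3816.3, 3776.6 and 3945.2 CPM with BAY-850 in SK-OV-3 cells. It did not overlap between the groups and gave a log2 fold change of -0.10 (edgeR adjusted p = 0.0846, 95% interval -0.19 to -0.018). DNAJB1 gave -0.089 (edgeR adjusted p = 0.181, 95% interval -0.18 to 0.0067). For HSPH1 and BAG3, which fell in PA-1, the intervals in SK-OV-3 included 0, from -0.061 to 0.15 for HSPH1 and from -0.12 to 0.10 for BAG3. HSPH1 had 537.1, 594.0 and 584.6 CPM with DMSO and 579.8, 587.2 and 588.3 CPM with BAY-850, so that the treated libraries lay among the controls. HSPA1A and HSPA1B had log2 fold changes of 0.093 (95% interval -0.012 to 0.20) and 0.052 (-0.058 to 0.16), and the mitochondrial HSPD1 and HSPE1 had -0.073 (-0.17 to 0.023) and 0.033 (-0.15 to 0.22).

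**Figure D3:**
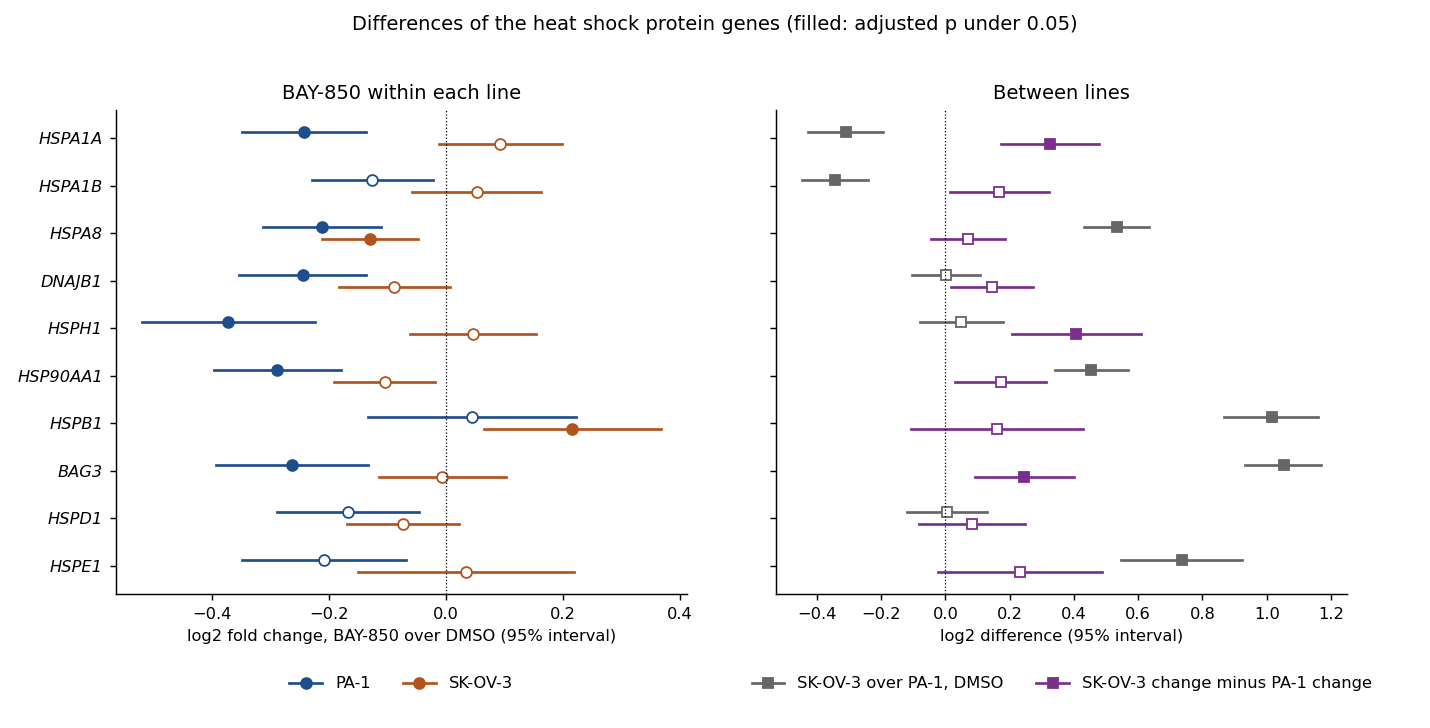
Differences of the 10 heat shock protein genes on the log2 scale with 95% intervals, on the left BAY-850 over DMSO within PA-1 (blue) and SK-OV-3 (orange), on the right SK-OV-3 over PA-1 with DMSO (grey) and the change in SK-OV-3 minus that in PA-1 (purple); filled symbols have an adjusted p under 0.05. In PA-1, 9 of 10 points lie below 0, and the difference between the lines' changes is filled for HSPA1A, HSPH1 and BAG3.

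Whether the 2 lines differed in their response was tested with an interaction term over all 12 libraries, which reuses the libraries of the comparisons above. The change was higher in SK-OV-3 than in PA-1 for HSPA1A, HSPH1 and BAG3 and lower for 0 of the 10 genes. Of all 16830 genes tested, the change was called higher in SK-OV-3 for 6.7% and lower for 7.77%. The difference was 0.41 ± 0.0942 on the log2 scale for HSPH1 (edgeR adjusted p = 0.00912), 0.33 ± 0.0712 for HSPA1A (0.00648) and 0.25 ± 0.0719 for BAG3 (0.0322). The calls on HSPA1A and HSPH1 held under every alternative run, 22 for HSPA1A and 23 for HSPH1.

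BAG3 was called under 14 of 23 alternatives. Its edgeR adjusted p was 0.0692 without PA-1 DMSO replicate 1, 0.0606 without PA-1 DMSO replicate 3, 0.0588 without PA-1 BAY-850 replicate 2, 0.0702 without PA-1 BAY-850 replicate 3, 0.0692 without SK-OV-3 DMSO replicate 2 and 0.0568 without SK-OV-3 BAY-850 replicate 2. All 10 differences had the same sign, from 0.071 for HSPA8 to 0.41 for HSPH1, with a median of 0.17 against -0.020 over all genes tested. The 7 that did not pass included HSP90AA1 (0.17, edgeR adjusted p = 0.0981), HSPA1B (0.17, 0.135) and DNAJB1 (0.15, 0.124). HSP90AA1 passed without PA-1 DMSO replicate 3 (0.0314), HSPA1B passed without SK-OV-3 BAY-850 replicate 3 (0.0186) and HSPE1 passed without SK-OV-3 DMSO replicate 1 (0.0274).

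Summed over the 10 genes, CPM was 9103 ± 338 in PA-1 cells with DMSO and 7716 ± 190 with BAY-850, a ratio of 0.848 with no overlap between the libraries (exact permutation test, two-sided p = 0.1, the smallest possible with 3 against 3). In SK-OV-3 cells the summed CPM was 10732 ± 73.9 with DMSO and 10276 ± 76.1 with BAY-850, a ratio of 0.958, also with no overlap (p = 0.1, exact). As a share of all counts the sum was 0.900% ± 0.0103 and 0.745% ± 0.0411 in PA-1, which did not overlap, and 1.095% ± 0.0554 and 1.056% ± 0.000531 in SK-OV-3, which did. HSP90AA1 made up the largest part of each sum. Its count over that of HSP90AB1, the constitutive cytosolic HSP90, was 1.09 ± 0.0476 with DMSO and 0.934 ± 0.00189 with BAY-850 in PA-1 cells, and 1.77 ± 0.0249 and 1.63 ± 0.0565 in SK-OV-3 cells. These ratios within a library did not overlap in either line (p = 0.1, exact). HSP90AB1 itself was not called in either line, with log2 fold changes of -0.060 ± 0.045 in PA-1 (edgeR adjusted p = 0.454) and 0.018 ± 0.0361 in SK-OV-3 (0.774).

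Several of these counts come from genes that share sequence or position. HSPA1A (chr6:31815464-31817946 in GENCODE v29 on GRCh38) and HSPA1B (chr6:31827735-31830255) lie next to each other on the plus strand, their transcripts were 96.8% identical over 2393 aligned bases, and 72.6% of the 50-base words of HSPA1A also occur in HSPA1B. The counts of each are therefore estimates of how reads were divided between them. The ratio of HSPA1A to HSPA1B counts was 1.84 ± 0.083 in PA-1 cells with DMSO and 1.70 ± 0.047 with BAY-850, with no overlap (exact p = 0.1), and 1.88 ± 0.0721 and 1.94 ± 0.0819 in SK-OV-3 cells, with overlap (exact p = 0.3). When the 2 genes were summed before the fit, HSPA1A plus HSPA1B fell in PA-1 cells by 0.20 ± 0.0458 (log2, edgeR adjusted p = 0.017). The sum was not called in SK-OV-3 cells (0.079 ± 0.0442, 0.242), and it differed between the lines in response (0.27 ± 0.0662, 0.013).

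HSPD1 (chr2:197486581-197516737, minus strand) and HSPE1 (chr2:197499994-197503457, plus strand) overlap in the annotation by 3464 bases on opposite strands. The read-through gene HSPE1-MOB4 also covers HSPE1 on its own strand. The expected count of HSPE1-MOB4 varied from 10.5 to 444 per library and was highest in SK-OV-3 BAY-850 replicate 3 and next highest in SK-OV-3 DMSO replicate 1 (227), which was also the SK-OV-3 library with the most HSPE1 (371.3 CPM, against 308.6 and 285.3 in the other 2). SK-OV-3 BAY-850 replicate 3 had 318.2 CPM of HSPE1, against 317.0 and 344.2 in the other libraries of its group. The HSPE1-MOB4 values are counts and the HSPE1 values are CPM, so the 2 are not on the same scale. SK-OV-3 DMSO replicate 1 held 40695745 counts in all, and the 227 are only those assigned to HSPE1-MOB4. The part of HSPE1-MOB4 in the HSPE1 values was not tested. DNAJB1 overlaps TECR on the opposite strand by 12686 bases and HSP90AA1 overlaps WDR20 by 197. Whether strand was used in counting is not given in the sources used here. HSPA8 holds the small nucleolar RNA genes SNORD14C, SNORD14D and SNORD14E on its own strand.

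Other chaperone genes were read from lists fixed by family, and each list is given by its counts and median. Over all genes tested, 2.48% were called lower and 4.65% higher in PA-1, and 9.56% and 10.8% in SK-OV-3. Each list count below is to be read beside these shares, and a small count in SK-OV-3 can lie near them. Among 9 other HSP70 and HSP110 genes, HSPA6, an HSP70 known for strict induction by stress, was lower in both lines. In PA-1 cells HSPA6 had a mean of 3.19 ± 0.0673 CPM with DMSO and 1.78 ± 0.0955 with BAY-850 and fell by 0.84 ± 0.219 (log2, edgeR adjusted p = 0.0334). In SK-OV-3 cells HSPA6 had 97.7 ± 6.59 and 45.7 ± 0.584 CPM and fell by 1.08 ± 0.0667 (fold 0.472, edgeR adjusted p = 1.04e-06). The testis-enriched HSPA2 fell by 0.44 ± 0.116 in SK-OV-3 cells (0.0199) and did not pass the filter on low counts in PA-1. These were 1 of 8 tested genes called lower in PA-1 and 2 of 9 in SK-OV-3, with 0 called higher in either line. The list had a median log2 fold change of -0.062 in PA-1 and -0.0435 in SK-OV-3.

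Of 13 HSP90 genes and co-chaperones, 3 were lower and 0 higher in PA-1 (median log2 fold change -0.060), and 0 were lower and 1 higher in SK-OV-3 (median 0.018). The gene that rose in SK-OV-3 was CHORDC1, an HSP90 co-chaperone, which also had the largest decrease in PA-1. Its mean was 216.7 ± 15.5 CPM with DMSO and 160.9 ± 7.73 with BAY-850 in PA-1 cells (fell by 0.43 ± 0.0633, edgeR adjusted p = 0.00088), and 171.4 ± 7.93 and 215.7 ± 15.5 CPM in SK-OV-3 cells (rose by 0.35 ± 0.0675, 0.00404). CACYBP (-0.27) and SUGT1 (-0.25), both with a domain that binds HSP90 and links to ubiquitin ligases, were the other 2 that fell in PA-1.

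Of 15 HSP40, BAG and other HSP70 partner genes, 14 were tested in PA-1, where 4 fell and 1 rose (median -0.11), and 15 in SK-OV-3, where 0 fell and 3 rose (median 0.081). The J-domain genes DNAJB4 and DNAJA1 fell in PA-1 by 0.40 ± 0.0617 and 0.26 ± 0.0574 (edgeR adjusted p = 0.00128 and 0.0132). DNAJA1 and DNAJB5 fell in PA-1 and rose in SK-OV-3, DNAJA1 by 0.22 ± 0.0485 (0.00766) and DNAJB5 by 0.24 ± 0.0663 (0.0276). DNAJB2 rose in both lines, by 0.24 ± 0.063 in PA-1 and 0.28 ± 0.0579 in SK-OV-3. None of the other small heat shock genes passed the test, with 4 of 8 tested in PA-1 and 2 of 8 in SK-OV-3 (edgeR, adjusted p under 0.05). Their medians were -0.127 and 0.24.

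The next list held 4 genes, the heat shock factors HSF1, HSF2 and HSF4 and the factor-binding protein HSBP1, which is not itself a factor. HSF2, a partner of HSF1 in binding heat shock elements, fell in PA-1 and rose in SK-OV-3. It was the only gene of this list called in either line, and the list medians were 0.0406 and 0.14. HSF2 had 49.2 ± 2.99 and 40.0 ± 4.62 CPM in PA-1 with DMSO and with BAY-850 (fell by 0.30 ± 0.0814, edgeR adjusted p = 0.0414) and 44.3 ± 2.00 and 55.7 ± 5.20 CPM in SK-OV-3 (rose by 0.34 ± 0.0755, 0.00853). HSF1, the main regulator of the heat shock response, was not called, with log2 fold changes of 0.25 ± 0.0788 in PA-1 (edgeR adjusted p = 0.0662) and 0.22 ± 0.0741 in SK-OV-3 (0.0547). Messenger RNA does not report the activity of HSF1, which is set on the protein.

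Of 14 other chaperones and proteases of mitochondria, 2 rose and 0 fell in PA-1, and 3 rose and 0 fell in SK-OV-3. Of all genes tested, 4.65% were called higher in PA-1 and 10.8% in SK-OV-3. The list medians were 0.00708 and 0.096. LONP1, a protease of the matrix, rose in both lines, by 0.39 ± 0.0643 in PA-1 (edgeR adjusted p = 0.00189) and 0.45 ± 0.0579 in SK-OV-3 (0.000253). SPG7, a protease of the inner membrane, rose in PA-1 by 0.24 ± 0.0664. GRPEL2, an exchange factor of mitochondrial HSP70, and HSPA9, that HSP70 itself, rose in SK-OV-3 by 0.59 ± 0.114 and 0.18 ± 0.0497. HSPA9 was not called in PA-1 (-0.023 ± 0.0498, 0.833).

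Among the folding machines that take up new proteins in the cytosol, none of the 8 subunits of the CCT chaperonin was called higher in either line. CCT7 alone was called lower, by 0.17 ± 0.0463 in SK-OV-3 (edgeR adjusted p = 0.0259). Of the 8 values, 6 lay below 0 in PA-1 and 7 in SK-OV-3 (medians -0.0915 and -0.1). The treated libraries of 3 subunits in PA-1 and 6 in SK-OV-3 all lay below the controls, which 13.3% and 20.5% of all genes did. In prefoldin, which brings actin and tubulin to CCT, PFDN4 fell in PA-1 by 0.39 ± 0.07 and PFDN2 rose in SK-OV-3 by 0.45 ± 0.07, each 1 of 6 subunits. All 6 prefoldin values lay below 0 in PA-1 and 3 did in SK-OV-3 (medians -0.0897 and 0.0259). Of the 14 chaperones of the endoplasmic reticulum, 1 rose and 0 fell in PA-1, and 1 rose and 8 fell in SK-OV-3 (median 0.013 and -0.20). CANX rose in PA-1 by 0.20 ± 0.054, and in SK-OV-3 DNAJB9 rose by 0.55 ± 0.136, while DNAJC3 fell by 0.41 ± 0.0939 and SERPINH1, the collagen chaperone, by 0.35 ± 0.0545. HSPA5, the HSP70 of that compartment, was not called in either line (-0.054 ± 0.0566 and -0.049 ± 0.0434).

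With 1 library left out in turn, 4 of the 13 calls named from these lists in PA-1 were kept in all 6 fits (CHORDC1, DNAJB4, LONP1 and PFDN4), and 9 of the 15 in SK-OV-3 (HSPA6, CHORDC1, DNAJA1, DNAJB2, HSF2, LONP1, GRPEL2, PFDN2 and SERPINH1). No named list gene changed direction within the line where it was called. Of the others in PA-1, DNAJB5 kept its call in 0 of the 6 fits, and HSPA6, SPG7 and CANX in 1 each. DNAJB2 and HSF2 kept it in 2 and CACYBP, SUGT1 and DNAJA1 in 3. Their edgeR adjusted p was up to 0.102 for HSPA6, 0.164 for CACYBP, 0.136 for SUGT1, 0.0888 for DNAJA1, 0.16 for DNAJB2, 0.115 for DNAJB5, 0.146 for HSF2, 0.15 for SPG7 and 0.164 for CANX. In SK-OV-3 the call was kept in 2 of 6 fits for DNAJB5 and HSPA9, 3 for CCT7, 4 for HSPA2 and DNAJB9 and 5 for DNAJC3. There the adjusted p reached 0.104 for HSPA2, 0.118 for DNAJB5, 0.0824 for HSPA9, 0.0981 for CCT7, 0.0691 for DNAJB9 and 0.0522 for DNAJC3. PA-1 DMSO replicate 2 and BAY-850 replicate 2 were among the libraries whose absence lost CACYBP, SUGT1, DNAJA1 and DNAJB2. With the GC trend removed, CACYBP, SUGT1, DNAJB2, HSF2, SPG7 and PFDN4 lost their calls in PA-1. With libraries scaled by their size alone, SUGT1, DNAJB2, DNAJB5, HSF2, SPG7 and CANX lost theirs in PA-1, and DNAJB5, HSPA9 and CCT7 in SK-OV-3.

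**Figure D4:**
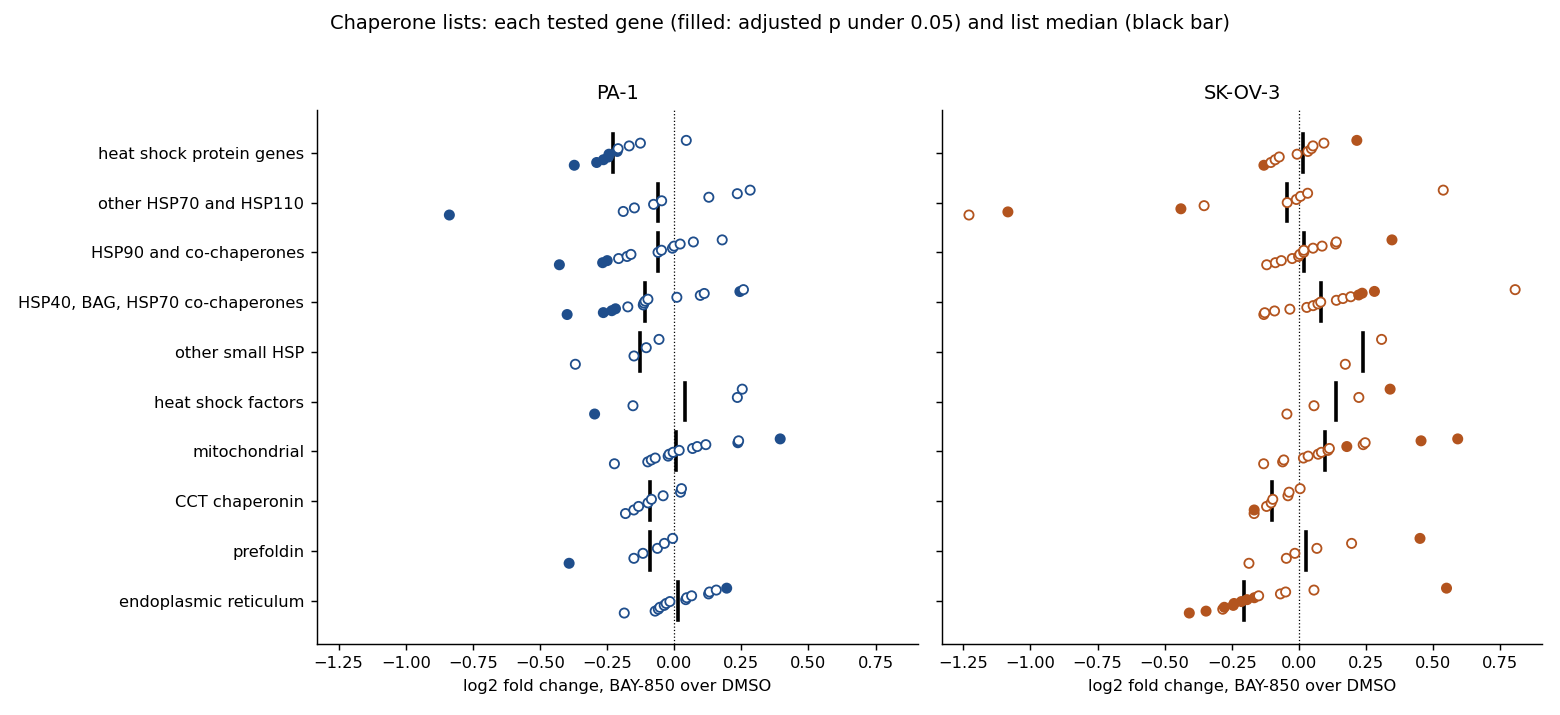
Log2 fold change of BAY-850 over DMSO in PA-1 (left) and SK-OV-3 (right) for each tested gene of the heat shock group and of 9 other chaperone lists; filled points have an adjusted p under 0.05 and black bars are list medians. The median of the heat shock group is -0.23 in PA-1 and 0.013 in SK-OV-3, and the endoplasmic reticulum list has its median at 0.013 and -0.20.

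Across the 12 libraries the genes fell into different patterns, given here as a description because the libraries come from 2 lines and the differences between lines dominate. HSPA8 and HSP90AA1 had the highest correlation of any pair of the 10 (Pearson's r = 0.989 on log2 CPM, n = 12), and each was among the 3 genes most like the other out of 10275 genes with a mean of at least 10 CPM. For HSPA8 the other 2 were FOPNL (0.992) and CAPZA1 (0.988), and for HSP90AA1 they were CTAGE5 (0.988) and CAPZA1 (0.983). HSPA1A and HSPA1B correlated with each other at 0.815, and HSPA1B had negative values with the other 8, down to -0.832 with HSPB1. DNAJB1 and HSPD1, which were not called between the lines, correlated at 0.873 with each other. BCCIP was the most similar gene to both DNAJB1 (0.889) and HSPD1 (0.921).

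For the remaining genes the closest 3 were TBPL1 (0.940), ETAA1 (0.935) and ZBTB6 (0.929) for HSPH1, and DYNC2LI1 (0.929), AKIRIN2 (0.918) and MTERF3 (0.915) for HSPA1A. For HSPA1B they were CCDC25 (0.971), ANKMY2 (0.966) and C3orf17 (0.965). For HSPB1 they were UCKL1 (0.996), LGALS1 (0.996) and CCDC85B (0.995), for BAG3 they included ZFP30 (0.998) and ERGIC2 (0.997), and for HSPE1 they were MRPL15 (0.988), MINOS1 (0.987) and GADD45A (0.987). For DNAJB1, MRPL45 followed (0.877), and for HSPD1 the others were PHF20L1 (0.874) and ZC3H7A (0.873).

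Within groups the genes moved little. The mean deviation of a library from its group over the 10 genes lay between -0.0423 and 0.0418 on the log2 scale, both in PA-1 cells with DMSO (replicates 3 and 1). The largest single deviations were 0.225 for HSPB1 in PA-1 BAY-850 replicate 3 and 0.216 for HSPE1 in SK-OV-3 DMSO replicate 1. The first of these turned the sign of the HSPB1 fold change in PA-1, which was -0.077 without that library (edgeR adjusted p = 0.495).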

How the data were processed

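RNA of 12 libraries was analysed (2 cell lines, each with DMSO or BAY-850, 3 replicates per group). The submitters' processing notes name Bowtie2 2.1.0, RSEM 1.2.15 and hg38. For each gene symbol the authors deposited an expected count, which RSEM estimates by dividing reads that fit several genes, with no normalization. The annotation behind them is not given in the sources used here. Every column was matched to a library by its name.

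Expected counts were rounded, filtered with edgeR's filter on low counts and scaled with TMM. Comparisons used edgeR 4.0.16's quasi-likelihood test under R 4.3.3, within each line, between the lines with DMSO, and with an interaction term over 12 libraries, with Benjamini-Hochberg adjustment over all genes tested. The SE is the log2 fold change divided by the square root of F. The steps were tested on simulated data. Alternatives used DESeq2 1.42.0, limma 3.58.1 (voom), other scalings and filters, the replicate number as a block, removal of each library's GC trend (loess span 0.5), and each library left out in turn.

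Positions, lengths and GC come from GENCODE v29 on GRCh38, with 23899 symbols matched as such, 26 by current symbol, 702 by an older one and 1848 unmatched; the length is that of 1 transcript per gene. Promoter windows come from RefSeq on GRCh38.p14. The 10 genes, the chaperone lists and the tests were chosen with earlier results of these data known. The text names the 10 genes, from each other list and line the 3 called genes that changed most, and HSF1, HSF2, HSP90AB1, HSPA9 and HSPA5 always. For each of the 10 it names the 3 genes most correlated over the libraries, of which 1 is not reported here. Genes outside this rule were chosen after their values were seen. P-values measure the spread between replicates, which the design text calls biological. Depth was 34544505 to 51840233 counts per library.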

Additional observations from a re-analysis of the deposited data

Results flagged for a closer look

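Results are given here where the change under BAY-850 differed between the lines by the interaction test (change in SK-OV-3 minus change in PA-1, log2 scale, edgeR adjusted p under 0.05 over all genes tested). Among the heat shock group these were HSPH1 with 0.407 ± 0.0942 SE, HSPA1A with 0.326 ± 0.0712 and BAG3 with 0.245 ± 0.0719. Of the other chaperone lists 21 genes had such a difference, 15 of them named by the rule for list genes and 6 outside it. By list, calls higher and lower were 2 and 0 of 13 for HSP90 and 5 and 0 of 15 for HSP70 partners. For the heat shock factors with HSBP1 they were 1 and 0 of 4. The calls were 1 and 2 of 14 for mitochondria, 0 and 1 of 8 for CCT, 2 and 0 of 6 for prefoldin and 1 and 6 of 14 for the endoplasmic reticulum. Over all 16830 genes tested 6.7% were called higher and 7.77% lower. Among HSP90 co-chaperones the called genes were CHORDC1 with 0.762 ± 0.0934 (adjusted p = 6.84e-05), whose change was of opposite sign in the 2 lines, and SUGT1 with 0.325 ± 0.0798.

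Among the HSP40 genes the difference was 0.475 ± 0.0708 for DNAJA1 (adjusted p = 0.000403), 0.468 ± 0.112 for DNAJB4 and 0.443 ± 0.0792 for DNAJB5. HSF2 differed by 0.626 ± 0.126 (adjusted p = 0.00379). Of the mitochondrial genes GRPEL2 differed by 0.664 ± 0.125 and SPG7 by -0.31 ± 0.0847. The subunits of folding complexes gave 0.477 ± 0.114 for PFDN2, 0.446 ± 0.106 for PFDN4 and -0.201 ± 0.0623 for CCT7. In the endoplasmic reticulum list the difference was called above 0 for 1 gene and below 0 for 6. Called or not, 3 of its 14 differences lay above 0 and 11 below. There DNAJB9 differed by 0.568 ± 0.149, SERPINH1 by -0.404 ± 0.0637, DNAJC3 by -0.402 ± 0.129 and CANX by -0.276 ± 0.0696.

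The 6 genes outside the rule are given because they passed the same test, and were chosen after their values were seen. In the endoplasmic reticulum list these were HYOU1 with -0.446 ± 0.0781, CALR with -0.384 ± 0.0713 and PDIA4 with -0.354 ± 0.0754 (adjusted p = 0.00143, 0.00217 and 0.00546). The HSP70 co-chaperones DNAJB6 and ST13 differed by 0.275 ± 0.0692 and 0.24 ± 0.0672 (adjusted p = 0.0149 and 0.0257), and the mitochondrial TRAP1 by -0.26 ± 0.0717 (adjusted p = 0.0241).

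With 1 library left out, HSPA1A, HSPH1 and 15 of the 21 list genes kept the call in all 12 fits. BAG3 and ST13 kept it in 6 each, SPG7 in 7, TRAP1 in 10, DNAJB9 in 11 (lost without PA-1 DMSO replicate 2), DNAJC3 in 2 and CCT7 in 1, with an adjusted p of up to 0.0702 for BAG3, 0.0666 for ST13, 0.0818 for SPG7, 0.0641 for TRAP1, 0.0546 for DNAJB9, 0.124 for DNAJC3 and 0.103 for CCT7. TRAP1 lost it without PA-1 DMSO replicate 2 and without PA-1 BAY-850 replicate 2. The list genes were also run under 11 other settings. PFDN4 lost its call there in both fits with the GC trend removed. PDIA4 lost it with library size alone and with the GC trend removed and the block, CANX in the first of these and DNAJB4 in the second. CCT7 kept the call in 4 of the 11 settings, SPG7 in 7, TRAP1 in 8, DNAJC3 and ST13 in 9 and DNAJB9 in 10.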

How the results depend on the processing

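The number of heat shock genes called in PA-1 (6) ranged from 2 to 7 with 1 library left out, and that in SK-OV-3 (2) from 0 to 4. In SK-OV-3 it was 1 with library size alone, without the filter on low counts, with at least 10 counts in every library, with the GC trend removed (HSPB1 in these 4) and with all 12 libraries in one fit (HSPA8), and 0 with the GC trend removed and the replicate block. The interaction count (3) was 6 with DESeq2 and 6 with the GC trend removed, and 2 to 4 with 1 library left out. The 7 calls between the lines stayed 7 with 1 library left out.

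Over all genes in PA-1 the 707 higher and 378 lower calls became 235 and 231 with library size alone, 393 and 155 with the GC trend removed, and 469 and 214 with all 12 libraries in one fit. They became 297 and 84 with the GC trend removed and the replicate block. The lower calls were 588 without the filter and 667 with DESeq2. With 1 library left out they ranged from 273 to 810 and from 65 to 418 in PA-1, and from 993 to 2050 and from 788 to 1852 in SK-OV-3. The interaction's lower calls were 773 with library size alone.

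Signs turned only for values that were not called. HSPB1 in PA-1 was -0.087 with the GC trend removed, -0.093 with the replicate block in addition, and from -0.077 (without BAY-850 replicate 3) to 0.13 with 1 library left out. HSPA9 in PA-1 was 0.012 and 0.011 in the same 2 GC fits, and from -0.059 to 0.00062 with 1 library left out. In SK-OV-3, BAG3 ranged from -0.018 to 0.0054 and HSPE1 from -0.045 to 0.155 with 1 library left out. Between the lines, DNAJB1 was -0.078 with the GC trend removed, with and without the block, and from -0.016 to 0.021 with 1 library left out. HSPD1 was -0.053 and -0.051 with the GC trend removed, without and with the block, and from -0.044 to 0.041 with 1 library left out. The causes were not tested.

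No pairing by replicate number was visible in the libraries. Deviations of same-numbered libraries correlated between -0.0319 and 0.044, and those of libraries with different numbers between -0.0468 and 0.0666. These values cannot show whether same-numbered libraries were handled together. With the GC trend removed and the block, HSPA6, DNAJB4 and DNAJA1 also lost their calls in PA-1. With the replicate block alone, HSPA6, DNAJB5, SPG7 and CANX lost theirs in PA-1, DNAJB5 and CCT7 in SK-OV-3, and the heat shock genes called were 6 in PA-1, 1 in SK-OV-3 (HSPA8 lost, adjusted p = 0.0736), 7 between the lines and 2 for the interaction (BAG3 lost, adjusted p = 0.0816).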
